A study of Rattus norvegicus with 2 samples.

Results

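The genes of respiratory complex I were taken as the transcript clusters, the probe sets that each measure 1 gene on the array, whose annotated symbol starts with Nduf. They were 40 of 23188 transcript clusters, and of 15049 with a gene symbol. Of these 40 genes, 31 encode subunits of the complex, 6 encode assembly factors named Ndufaf, and 3 are Ndufa4, its paralog Ndufa4l2 and Ndufa10l1, a copy of Ndufa10. Other genes of the complex were not analysed here, among them Ndufs6, Ndufa3, Ndufa8, Ndufb1 and Ndufc1, the assembly factor genes Ndufaf2 and Ndufaf3, and the subunit genes of mitochondrial DNA. The cocaine group was thymus RNA of male Sprague-Dawley rats, 8 weeks old, given cocaine into the tail vein at 20 mg/kg on each of 7 days. The control group was thymus RNA of male rats of the same kind, which the methods describe as injected with saline and the labels as unstimulated. Each group was read on 1 Clariom S array. Whether an array held RNA of a single rat or of several is not given in the sources used here. The differences thus have no replicate check, no test was made, and every value describes these 2 arrays only. In whole thymus, fewer cells of a type and less RNA per cell cannot be told apart.

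Complex I is the entry point of electrons from NADH into the mitochondrial respiratory chain. Its peripheral arm oxidizes NADH and passes electrons along flavin and iron-sulfur clusters to ubiquinone, and its membrane arm uses the energy released to pump protons. The core subunits that carry this chemistry are conserved from bacteria, while the accessory subunits surround and stabilize them. Assembly factors help to build the complex and are not part of the finished enzyme. In the thymus, most cells are developing T cells, which also use mitochondrial respiration.

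The arrays carried the genes of immature thymocytes on both sides. Rag1, which cuts T cell receptor genes, had a log2 intensity of 18.87 in the cocaine thymus and 18.87 in the control thymus, and Cd4 had 16.40 and 16.67. The widest differences among the 9 thymocyte markers were those of Rag2 (11.46 with cocaine and 11.11 in the control), Cd4 and Arpp21 (16.01 and 16.25). All 9 lay within 1.5-fold, with a median difference of -0.03. Past that limit were 2.09% of all transcript clusters upward and 2.51% downward. The note on extraction in the labels speaks of spleen although titles and source give thymus. The 4 named B cell markers lay between 6.57 and 8.02 in the cocaine thymus and between 6.53 and 8.02 in the control thymus. Cr2, at 7.82 with cocaine and 7.46 in the control, differed most among them, followed by Pax5 (6.57 and 6.53) and Cd79b (7.82 and 7.84). Over all transcript clusters the median log2 intensity was 6.74 with cocaine and 6.76 for the control. The deposited value was exactly the same on both arrays for 27.2% of all transcript clusters, and for 7 of the 40 Nduf genes. The central 95% of all differences, cocaine minus control, ran from -0.59 to 0.56 on the log2 scale.

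In the cocaine thymus more complex I subunit genes were higher than lower, mostly by small amounts, and Ndufb8 stood far from the rest. Of the 31 subunit genes, 23 were higher, 5 were lower and 3 held the same value on both arrays. Among all transcript clusters 37.0% were higher, 35.9% were lower and 27.2% were the same. Among named ones within the intensity range of the subunits, 47.5% were higher and 28.5% were lower, with 24.0% at the same value. A lean to higher values was thus also present among other genes of this intensity range. After quantile normalization or lowess centring the subunits divided into 20 higher and 11 lower, and after median centring into 27 and 4. The median difference of the subunits was 0.17 on the log2 scale, against 0 for all transcript clusters and 0 for the named ones in the same intensity range. These medians of 0 fall on the rows with the same value on both arrays. The mean difference was 0.19 for the subunits and 0.05 for the named ones in that range. Quantile normalization set the median of the subunits at 0.11, against -0.02 for the named ones in that range.

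By more than 1.5-fold, 3 of the 40 Nduf genes were higher in the cocaine thymus and none was lower. The same limit was passed upward by 2.09% and downward by 2.51% of all transcript clusters, and by 2.89% and 1.37% of the named ones in the intensity range of the subunits. The higher ones were the accessory subunit gene Ndufb8, the assembly factor gene Ndufaf4 and the core subunit gene Ndufs7. The mean of Ndufaf4 lay below the brightest background probe row of the array. Ndufs4 lay just inside the limit, at 1.499-fold, and passed it after median centring. By more than 2-fold, only Ndufb8 was higher and no Nduf gene was lower, against 0.129% and 0.22% of all transcript clusters. At the narrowest limit, stated with the processing, 8 Nduf genes were higher and 1, Ndufaf1, was lower, against 8.68% and 8.99% of all transcript clusters.

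**Figure D1:**
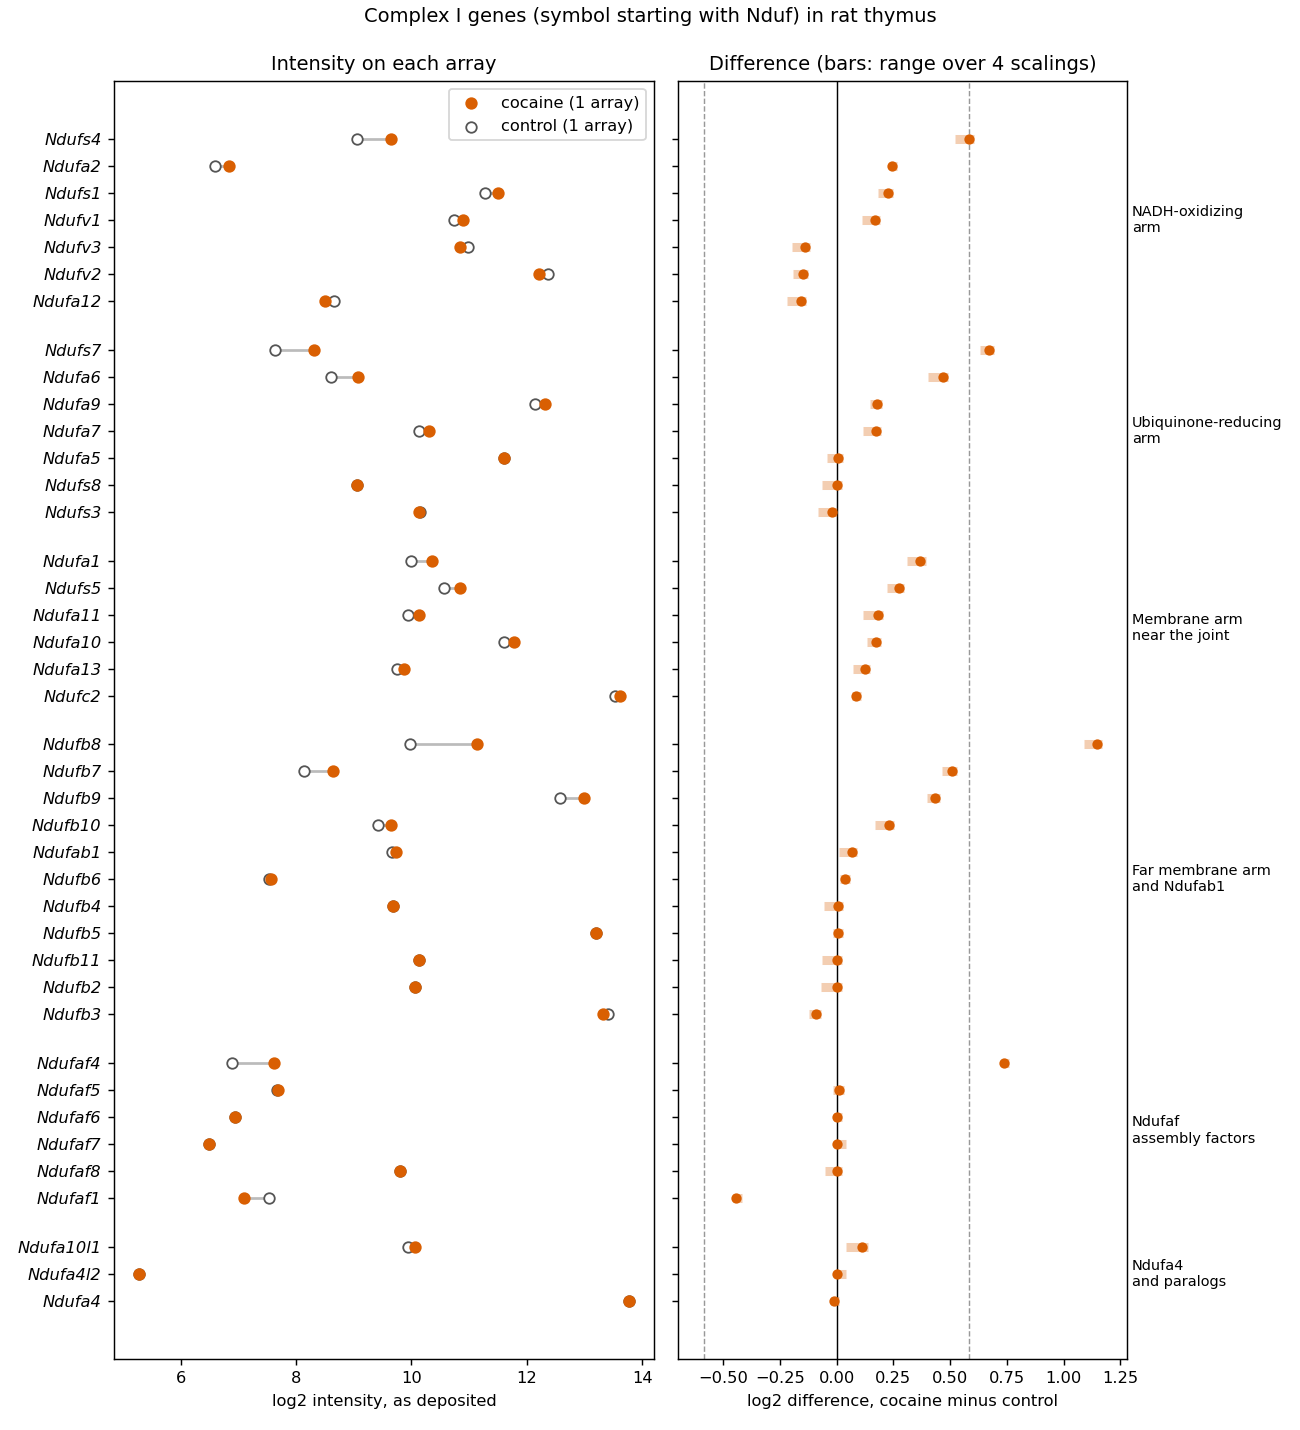
Left, log2 intensity of each Nduf gene in the cocaine thymus (filled) and in the control thymus (open), 1 array each, in groups by the part of the complex. Right, the log2 difference, cocaine minus control, with dashed lines at 1.5-fold and bars for the range over 4 scalings. Ndufb8, Ndufaf4 and Ndufs7 lie past the line on the higher side, and Ndufaf1 is the lowest at -0.44.

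Ndufb8 encodes an accessory subunit of the far end of the membrane arm. Its deposited intensity was 2241 in the cocaine thymus and 1012 in the control thymus. On the log2 scale this was 11.13 and 9.98, a difference of 1.15, or 2.22-fold higher with cocaine. Only 12 of 23188 transcript clusters had a larger positive difference. The next subunit gene in order, Ndufs7, differed by 0.67, and the other 29 lay between -0.16 and 0.58. Under the other scalings the difference of Ndufb8 was 1.09 to 1.17. Without Ndufb8 the median of the subunits was 0.15.

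Ndufb8 also has a place in the study's protein work, as the commercial antibody mix listed there for OXPHOS proteins detects, as background, NDUFB8 for complex I, SDHB for complex II, UQCRC2 for complex III, MTCO1 for complex IV and ATP5A for complex V. Of the genes of these proteins, Sdhb had a log2 intensity of 12.39 in the cocaine thymus and 12.31 in the control thymus. Uqcrc2 was 13.15 with cocaine and 12.93 in the control, and Atp5f1a, which encodes ATP5A, was 15.45 and 15.43. The difference of Ndufb8 was thus 1.15 where those of the other three lay between 0.01 and 0.22. The gene of MTCO1 was not analysed here. In its immunoblot of OXPHOS proteins, the study reports no change between the cocaine and control groups. That is a measure of protein, while the values here are RNA from 1 array per group.

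The chromosomal surroundings of Ndufb8 hold the gene with the largest difference of all. In the RefSeq order of protein-coding genes (assembly GRCr8), the named genes on one side are Scd, Wnt8b and Sec31b, and those on the other are Hif1an, Pax2 and Slf2. Scd, the stearoyl-CoA desaturase gene, had a log2 intensity of 9.02 in the cocaine thymus and 11.52 in the control thymus, the lowest difference among all transcript clusters at -2.50. Of the genes between Scd and Ndufb8, Wnt8b held 5.76 on both arrays and Sec31b was 6.74 with cocaine and 6.45 in the control. Both genes lay below the brightest background probe row on both arrays. Hif1an, which encodes an asparagine hydroxylase that acts on HIF, was 10.40 with cocaine and 10.38 in the control. Slf2 was 12.36 with cocaine and 12.92 in the control. These neighbours were chosen after the value of Ndufb8 had been seen, and their differences had no common direction.

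**Figure D2:**
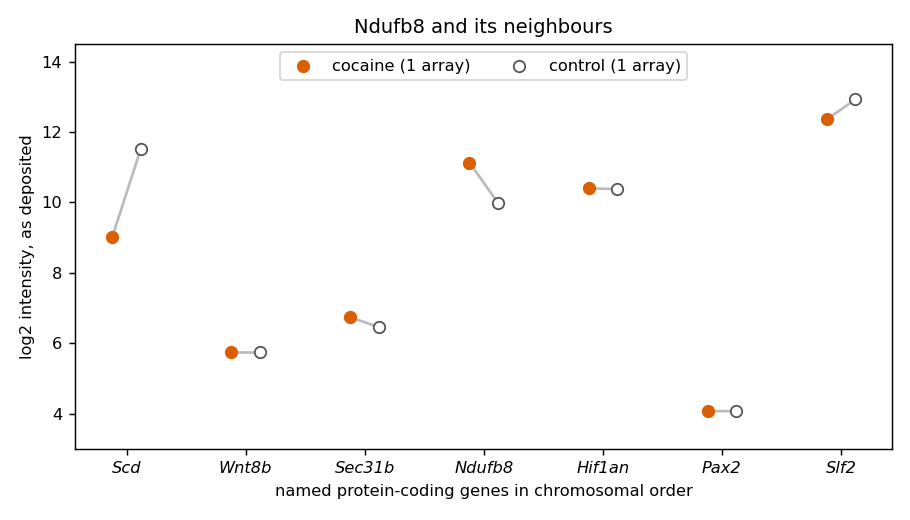
Log2 intensity of Ndufb8 and its named protein-coding neighbours in chromosomal order, in the cocaine thymus (filled) and the control thymus (open), 1 array each. The log2 difference, cocaine minus control, is -2.50 for Scd and 1.15 for Ndufb8, while Wnt8b, Hif1an and Pax2 differ by less than 0.02.

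The sequences before the start sites of the 3 genes past 1.5-fold, and of Ndufaf1, the lowest Nduf gene, are shown to set side by side the letters of known regulators of respiratory genes. They are the 250 bases before the RefSeq start (build GRCr8), read 5′ to 3′ on the strand of the gene. Ndufb8 is at chr1:253362937-253363186 on the minus strand, Ndufaf4 at chr5:43401545-43401794 on the plus strand, Ndufs7 at chr7:10110499-10110748 on the minus strand and Ndufaf1 at chr3:127104021-127104270 on the minus strand. Capitals mark TGCGCA, a run of letters found in many sites of the nuclear respiratory factor NRF1. They also mark CCGGAAG, a run found in many sites of the ETS family, to which GABP belongs.
Ndufb8: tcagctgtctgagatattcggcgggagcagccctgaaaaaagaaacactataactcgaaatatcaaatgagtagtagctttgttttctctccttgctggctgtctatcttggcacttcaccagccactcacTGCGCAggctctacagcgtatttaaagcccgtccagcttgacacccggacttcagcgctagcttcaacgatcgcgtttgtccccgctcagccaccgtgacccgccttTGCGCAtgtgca
Ndufaf4: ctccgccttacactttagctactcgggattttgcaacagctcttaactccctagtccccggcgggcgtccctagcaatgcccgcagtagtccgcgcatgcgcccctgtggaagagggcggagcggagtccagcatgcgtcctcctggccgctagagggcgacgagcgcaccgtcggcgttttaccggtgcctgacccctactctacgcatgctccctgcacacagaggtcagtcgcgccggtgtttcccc
Ndufs7: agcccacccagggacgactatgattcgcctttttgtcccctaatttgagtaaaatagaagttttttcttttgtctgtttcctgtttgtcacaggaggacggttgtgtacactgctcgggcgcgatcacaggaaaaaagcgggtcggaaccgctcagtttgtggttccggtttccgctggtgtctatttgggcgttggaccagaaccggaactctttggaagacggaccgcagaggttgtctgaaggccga
Ndufaf1: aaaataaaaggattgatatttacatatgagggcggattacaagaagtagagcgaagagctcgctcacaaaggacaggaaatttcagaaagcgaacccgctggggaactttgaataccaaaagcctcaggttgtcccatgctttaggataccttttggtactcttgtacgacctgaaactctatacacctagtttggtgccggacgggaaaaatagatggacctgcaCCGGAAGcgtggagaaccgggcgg
Ndufb8 held TGCGCA at 2 places, 119 and 12 bases before the start, and Ndufaf1 held CCGGAAG 24 bases before it. Ndufaf4 and Ndufs7 held neither run of letters in full. A longer palindromic form of NRF1 sites was also searched and is not marked or counted here. The Ndufaf4 sequence holds that form, so lacking TGCGCA does not mean lacking letters of NRF1 sites.

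A promoter was found for 37 of the 40 Nduf genes, and Ndufa10l1, Ndufaf6 and Ndufb9 had no entry used here. Searching both strands of these 250 bases, TGCGCA stood in 11 of the 37 (29.7%), against 6.57% of all promoters of the table and 9.39% of those of genes named on the array. CCGGAAG stood in 9 of the 37 (24.3%), against 7.74% and 11.4%. TGCGCA reads the same on both strands, and the letters of the 2 motifs cannot overlap. Genes with and without each motif had differences that overlapped. The Nduf genes with TGCGCA had a median difference of 0.04 and a range of -0.16 to 1.15, and those without it had a median of 0.08 and a range of -0.44 to 0.74. The genes with CCGGAAG had a median of 0.23 and those without it 0.02, with ranges that overlapped (-0.44 to 0.51 and -0.16 to 1.15). A match is a stretch of letters and not a measured binding site.

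The NADH-oxidizing arm takes electrons from NADH. Its 7 named subunit genes lay on both sides, with 4 higher and 3 lower after cocaine, and all 7 lay within 1.5-fold. Among all transcript clusters 37.0% were higher and 35.9% were lower, and 2.09% and 2.51% were so by more than 1.5-fold. Ndufv1, which encodes the subunit that binds NADH and the flavin, had a log2 intensity of 10.90 in the cocaine thymus and 10.73 in the control thymus. Ndufs1, the gene of a large iron-sulfur subunit, was 11.50 with cocaine and 11.27 in the control. Ndufv2, another iron-sulfur subunit gene of this arm, lay the other way, at 12.21 with cocaine and 12.36 in the control. The core subunits of the arm thus differed by -0.15 to 0.23.
Among the accessory subunit genes of the same arm, Ndufs4, whose loss destabilizes the arm and causes Leigh-like disease in mice and in patients, had the widest difference of the arm. It was 9.64 in the cocaine thymus and 9.06 in the control thymus, 0.58 higher. Ndufa2 was 6.84 with cocaine and 6.59 in the control. Ndufv3 was 10.84 with cocaine and 10.98 in the control, and Ndufa12 was 8.50 and 8.66, the lowest difference of any subunit gene at -0.16.

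The ubiquinone-reducing arm hands the electrons on to ubiquinone. Of its 7 named genes, 5 were higher, Ndufs3 was lower by 0.02 and Ndufs8 held the same value on both arrays. The shares of all transcript clusters were 37.0% higher, 35.9% lower and 27.2% the same. Ndufs7 encodes the subunit with the last iron-sulfur cluster before ubiquinone, and its intensity was 317 in the cocaine thymus and 199.5 in the control thymus. On the log2 scale this was 8.31 and 7.64, 1.59-fold higher. The other core genes of the arm lay near equality, with Ndufs3 at 10.13 with cocaine and 10.15 in the control and Ndufs8, an iron-sulfur subunit gene, at 9.06 on both arrays.
All 4 accessory genes of this arm were higher, though Ndufa5, at 0.01, turned lower after quantile normalization and after lowess centring. Ndufa6 was 9.08 in the cocaine thymus and 8.61 in the control thymus. Ndufa9 was 12.32 with cocaine and 12.14 in the control, Ndufa7 was 10.31 and 10.13, and Ndufa5 was 11.61 and 11.60. Over both peripheral arms, the 6 named core genes had a median difference of 0.08, and the 25 accessory genes of the whole complex had one of 0.17.

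The membrane arm near its joint with the peripheral arm had 6 named genes, and all 6 were higher in the cocaine thymus. The share higher was 37.0% of all transcript clusters and 47.5% of the named ones in the intensity range of the subunits. All 6 were higher under each of the 4 scalings, which rescale the same 2 arrays and add no replicate. The differences of the 6 ran from 0.08 to 0.37, within 1.5-fold, with a median of 0.18. Ndufa1 was 10.35 in the cocaine thymus and 9.98 in the control thymus, and Ndufs5 was 10.84 and 10.57. Ndufa11 was 10.13 with cocaine and 9.94 in the control. Ndufa10 was 11.77 with cocaine and 11.60 in the control, and its copy Ndufa10l1 was 10.06 and 9.95. Whether the probes tell these copies apart is not given in the sources used here. Ndufa13, also known as GRIM-19 for its part in cell death, was 9.87 with cocaine and 9.75 in the control, and Ndufc2 was 13.61 and 13.53.

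The far membrane arm, to which Ndufb8 belongs, had 10 named genes, of which 7 were higher, 1 was lower and 2 held the same value. Over all transcript clusters these shares were 37.0%, 35.9% and 27.2%. The genes of the far arm spread more widely than those near the joint, from -0.09 to 1.15, while their median was only 0.02. After Ndufb8 came Ndufb7, at 8.64 in the cocaine thymus and 8.13 in the control thymus, 1.42-fold higher. Ndufb9 was 13.00 with cocaine and 12.57 in the control, and Ndufb10 was 9.65 and 9.42. These 4 genes differed by 0.23 to 1.15 and the other 6 by -0.09 to 0.04, a division drawn from these same differences.
Of those 6, Ndufb2 held 10.06 and Ndufb11 held 10.13 on both arrays. Ndufb5 was 13.20 on both to the second decimal, Ndufb4 was 9.68 with cocaine and 9.67 in the control, and Ndufb6 was 7.56 and 7.53. Ndufb3 was 13.32 with cocaine and 13.41 in the control. Ndufb3, Ndufb4 and Ndufb11 have 3, 4 and 1 further protein-coding copies in the RefSeq table, so their values may mix copies. Ndufab1, the mitochondrial acyl carrier protein that serves in both arms, was 9.73 in the cocaine thymus and 9.66 in the control thymus.

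**Figure D3:**
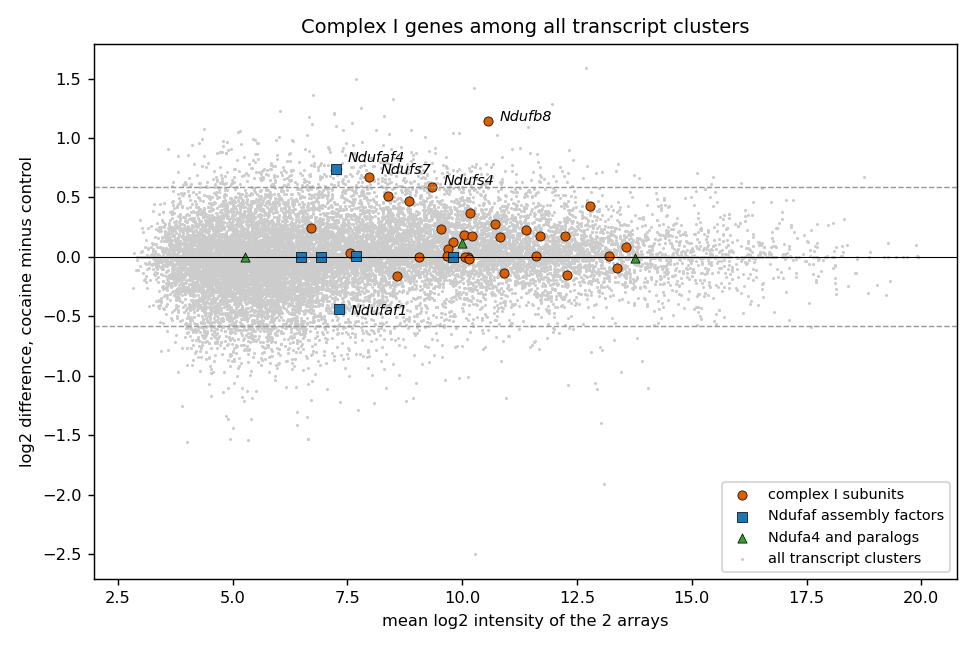
Log2 difference, cocaine minus control, against the mean log2 intensity of the 2 arrays for the 40 Nduf genes (coloured) and all transcript clusters (grey), with dashed lines at 1.5-fold. Ndufb8 at 1.15 lies above all other Nduf genes, and the other subunit genes lie between -0.16 and 0.67.

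The Ndufaf genes gave no common direction. Of 6 named, 2 were higher, 1 was lower and 3 held the same value, beside 37.0%, 35.9% and 27.2% of all transcript clusters. The median difference of the 6 was 0. Ndufaf4, which acts early in building the ubiquinone-reducing arm, had an intensity of 197 in the cocaine thymus and 118 in the control thymus. On the log2 scale this was 7.62 and 6.88, 1.67-fold higher. Ndufaf1, a member of the complex that assembles the membrane arm, was the lowest of all 40 Nduf genes, at 7.09 in the cocaine thymus and 7.53 in the control thymus, 1.36-fold lower. Both of these genes were dim. The array holds 23 background probe rows, and the brightest of them had a log2 intensity of 7.47, above the mean of Ndufaf4 (7.25) and of Ndufaf1 (7.31). In all, 6 of the 40 Nduf genes had a mean below that row, 4 of them Ndufaf genes, with Ndufa2 and Ndufa4l2.
Ndufaf5, a hydroxylase that modifies NDUFS7 in human cells, was 7.68 in the cocaine thymus and 7.67 in the control thymus, and turned lower after quantile normalization and after lowess centring. Its partner Ndufaf8 held 9.80, Ndufaf6 held 6.93 and Ndufaf7, a methyltransferase, held 6.49 on both arrays.

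Assembly factors without the Nduf name had a median difference of 0.23 over 11 named genes. Of these, 9 were higher, 1 was lower and 1 held the same value, beside 37.0% higher and 35.9% lower among all transcript clusters. By more than 1.5-fold, 1 was higher and 1 was lower, beside 2.09% and 2.51% of all transcript clusters. The higher was Tmem126b, a partner of Ndufaf1 in the assembly of the membrane arm, at 6.98 in the cocaine thymus and 6.35 in the control thymus, both below the brightest background probe row (7.47). Tmem186, at 6.93 with cocaine and 6.57 in the control, and Tmem70 also lay below that row on both arrays. The lower was Nubpl, which delivers iron-sulfur clusters to complex I, at 7.51 in the cocaine thymus and 8.35 in the control thymus, a difference of -0.84. Other partners of Ndufaf1 were Acad9, at 9.17 with cocaine and 8.93 in the control, and Ecsit, at 7.66 and 7.62.

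Of the remaining Nduf genes, Ndufa4, which was named as a complex I gene but whose protein belongs to complex IV, was 13.76 in the cocaine thymus and 13.78 in the control thymus. Its paralog Ndufa4l2, a hypoxia-induced gene, held 5.27 on both arrays. With these genes and Ndufa10l1 counted among the subunits, the median was 0.12.

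The other respiratory complexes had 35 named subunit genes, with a median difference of 0.02 and a mean of 0.11 over all of them. The complex I subunits had a median of 0.17 and a mean of 0.19. None passed 1.5-fold, beside 2.09% higher and 2.51% lower among all transcript clusters. Of the 35, 21 were higher, 8 were lower and 6 held the same value. The share higher was 77.8% in complex III and 76.9% in complex V, beside 74.2% of the complex I subunits. It was 25% in complex II, 33.3% in complex IV and 37.0% of all transcript clusters. By complex, the median was 0 for the 4 genes of complex II, 0.11 for the 9 of complex III, 0 for the 9 of complex IV and 0.13 for the 13 of complex V. The means were 0.01, 0.19, 0.02 and 0.16 in the same order. Uqcrq of complex III was 9.94 in the cocaine thymus and 9.38 in the control thymus, the highest of them at 0.55. Next in complex III were Uqcrc1 (9.36 with cocaine and 8.86 in the control) and Uqcrfs1, the Rieske iron-sulfur protein gene (12.21 and 11.73). In complex IV, Cox7a2 was 15.66 with cocaine and 15.16 in the control, Cox4i1 was 10.14 and 9.99, and Cox5a was 10.70 and 10.92, the lowest of the 35 genes. In complex V, the ATP synthase, the widest differences were those of Atp5mg (9.39 with cocaine and 8.91 in the control), Atp5mf (14.64 and 14.16) and Atp5po (9.87 and 9.52), all higher. In complex II, Sdhb was 0.08 higher, Sdhc was 9.76 with cocaine and 9.79 in the control, and Sdha and Sdhd held the same value. With 1 array per group, no difference between the complexes could be tested.

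Genes that feed or control complex I had medians of 0, which fall on rows with the same value on both arrays. The mean difference was -0.02 for the citric acid cycle, 0.10 for iron-sulfur cluster assembly and 0.10 for regulators of respiratory genes. It was 0.05 for the named transcript clusters in the intensity range of the subunits. Of 11 enzyme genes of the citric acid cycle, which supplies NADH, none passed 1.5-fold. The widest differences were those of Mdh2 (12.95 with cocaine and 13.17 in the control), Dlst (10.32 and 10.50) and Dld (11.53 and 11.37), on both sides of 0. Citrate synthase (Cs) held 13.41 on both arrays. Of 12 genes of iron-sulfur cluster assembly, only Fdx1, a ferredoxin gene, was higher by more than 1.5-fold, at 8.68 with cocaine and 7.89 in the control. Nfs1, the cysteine desulfurase gene, was 9.06 with cocaine and 8.66 in the control, and Iscu, the scaffold gene, was 10.88 and 11.03. Of 12 regulators of respiratory genes, only Ppargc1a was, at 4.40 with cocaine and 3.79 in the control, below the brightest background probe row on both arrays. Polrmt, the mitochondrial RNA polymerase gene, was 9.48 with cocaine and 9.09 in the control. The gene of NRF1, Nrf1, was 14.43 with cocaine and 14.40 in the control, and of the GABP genes Gabpb1 was 12.92 and 12.72 and Gabpa was 11.57 and 11.49. Tfam, which activates mitochondrial DNA, held 11.17 on both arrays.

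**Figure D4:**
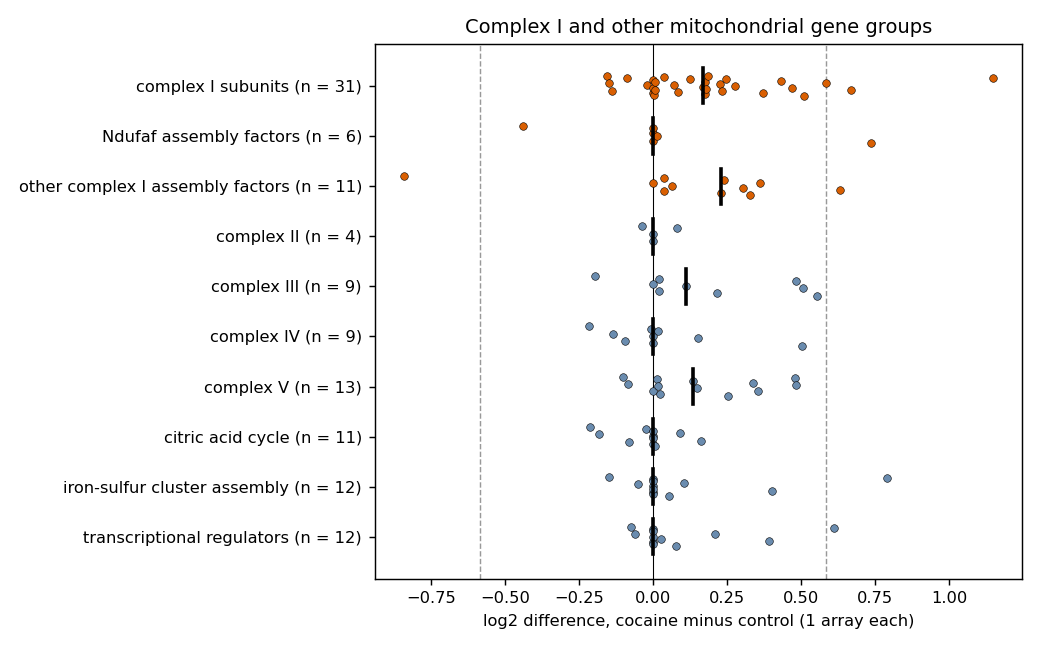
Log2 difference, cocaine minus control, of each gene (points) and the median (black bar) for complex I subunits, assembly factors and other mitochondrial gene groups, with dashed lines at 1.5-fold. The complex I subunits have a median of 0.17, and complexes II to V have medians of 0, 0.11, 0 and 0.13.

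Markers of cell types rich in mitochondria lay in both directions. For comparison, 37.0% of all transcript clusters were higher and 35.9% were lower, and 2.09% and 2.51% were so by more than 1.5-fold. Of 6 named brown adipocyte markers, 2 were higher, 3 were lower and 1 held the same value, and their summed intensity was 634 in the cocaine thymus and 752 in the control thymus. Cidea was 7.71 with cocaine and 8.16 in the control and Dio2 was 7.44 and 7.75. Ucp1, the defining gene of these cells, was 6.95 and 6.88, below the brightest background probe row on both arrays. Of 8 named striated muscle markers, 4 were higher and 3 were lower, with a summed intensity of 3551 with cocaine and 5239 in the control, of which the ventricular light chain gene Myl2 (11.50 and 12.18 on the log2 scale) gave 2886 and 4638. Tnnt3 lay the other way, at 8.10 with cocaine and 7.53 in the control, and Ckm was 5.63 and 6.03, below that row on both arrays. Of 5 erythroid markers, 3 were higher and 2 were lower. The lower ones, both past 1.5-fold, were Hba-a1, at 11.20 with cocaine and 11.92 in the control, and Slc4a1, at 4.19 and 5.53, below the brightest background probe row on both arrays. Alas2 was 6.05 with cocaine and 5.56 in the control, also below that row, and Hbb was 8.48 and 8.46. The summed erythroid intensity was 2805 in the cocaine thymus and 4327 in the control thymus, of which Hba-a1 gave 2354 and 3872. The part of these cell types in the values of complex I genes was not tested.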

How the data were processed

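Thymus RNA of the cocaine and the control group was hybridized to 1 Clariom S array for each group. The authors processed the scans in TAC and deposited a linear intensity for each transcript cluster. The version, settings and build of that step were not given in the sources read. Of 24834 deposited rows, 1646 control rows were left out. The 15049 transcript clusters with a gene symbol were all matched to the RefSeq table (assembly GRCr8) by gene number. The quartiles of the 2 columns differed by at most 0.06 on the log2 scale and the median difference was 0, so the table was taken as already normalized and its log2 values were used without further scaling. Quantile normalization, which gives a difference to genes with the same deposited value (-0.07 to 0.04 for the 7 Nduf genes), median centring and lowess centring (span 0.3) were alternatives, as were filters on dim rows and limits of 1.25-fold and 2-fold. A fold divides the brighter by the dimmer intensity. The number of arrays limits the precision, and no p is given. Probes differ in how brightly they report, so levels are not ranked between genes. Summed marker intensities weigh bright probes most. Values below the brightest background probe row were kept without a filter, and not all of them, such as those of Pax5, were named as such.

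The members and gene lists were chosen with earlier results of these data known. By rule, values were given for every Nduf gene past 1.5-fold, the 6 highest and 6 lowest differences among brighter Nduf genes, the brightest and dimmest subunits, the core subunits, every Ndufaf gene, Ndufa4 and its paralogs, the targets of the antibody mix, and of each other list up to 3 members that differed most, leaving out those dimmer than the 25th percentile. The other Nduf genes, the further genes of other lists (such as Rag1, Acad9, Ecsit, Tmem70, Nrf1, Tfam, Cs and the dim Ppargc1a and Slc4a1) and the neighbours of Ndufb8 fall outside it and were chosen after their values were seen. Cell type lists held markers of thymocytes, B cells, brown adipocytes, striated muscle and erythroid cells. Scripts were tested on simulated data. Computations ran in Python 3.11.15 (numpy 2.4.6, pandas 2.3.3), lowess in statsmodels 0.14.6, and plots in matplotlib 3.10.9.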

Additional observations from a re-analysis of the deposited data

How the results depend on the processing

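No paired analysis was possible because a single array stood for each group, which also left no replicate to omit. The median difference of the subunit genes, 0.17, was 0.11 after quantile normalization and 0.12 to 0.19 under the other settings. The comparison with named genes in the intensity range of the subunits was added after seeing the data. For the Ndufaf genes the median of 0 became a mean of 0.051 and was -0.01 to 0.02 otherwise. The count of Nduf genes past the limit, 3 higher and 0 lower at 1.5-fold, was 1 and 0 at 2-fold and 8 and 1 at the narrowest limit. It was 4 higher after median centring, which adds Ndufs4, and unchanged under the other scalings and filters. The largest change that any scaling made to the difference of a Nduf gene was 0.07. Signs turned for Ndufaf5, Ndufa5, Ndufb4 and Ndufb5 after quantile normalization and after lowess centring, and for Ndufa4 and Ndufs3 after median centring, all with differences close to 0. Each Nduf gene had 1 transcript cluster, so averaging clusters changed nothing. Low signal limits Ndufa2, Ndufa4l2 and 4 Ndufaf genes, which lay below the brightest background probe row.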
